A study of Homo sapiens with 8 samples.

Results

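The 9p21 locus on human chromosome 9 holds the tumor suppressor genes CDKN2A and CDKN2B, the metabolic gene MTAP, the cluster of type I interferon genes and, further along, DMRTA1. CTCF peaks were taken into account if their centre lay in the 2.5 Mb of hg19 chr9:20500001-23000000, which was true of 46 of 47470 peaks of control cells and of 26 of 29558 peaks of CBL0137-treated cells. The cells were HT1080, a human fibrosarcoma line derived from connective tissue and labelled ras+. They were either left untreated or exposed to 3 µM CBL0137, a DNA-intercalating anti-cancer compound of the curaxin class, for 6 h. Chromatin was immunoprecipitated with a polyclonal antibody against CTCF, and the 8 libraries comprised 2 ChIP and 2 input libraries of each condition. The deposited peak lists merge both biological replicates of a condition, so the values below carry no replicate error and no difference between the conditions was tested.

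CTCF is a zinc-finger protein that binds an asymmetric DNA motif and, by stopping cohesin, anchors chromatin loops and domain borders. CDKN2A encodes the cell cycle inhibitor p16INK4a and, from another reading frame, the p53 activator ARF. CDKN2B encodes the related inhibitor p15INK4b, and CDKN2B-AS1 (ANRIL) is a long non-coding RNA transcribed across it. MTAP encodes the methionine salvage enzyme methylthioadenosine phosphorylase, IFNB1, IFNW1, IFNE and the IFNA genes encode secreted antiviral type I interferons, and DMRTA1 encodes a DM-domain transcription factor. HT1080 is known as a line in which CDKN2A and MTAP are deleted, which is given here as background, and whether the deletion bears on the peaks described below was not tested because the peak lists hold no copy number or input read depth.

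The sequences under the peaks nearest to CDKN2A on the MTAP side, and at matches without a peak in MTAP, CDKN2A and CDKN2B, are shown to set sites with and without a called peak side by side. Each run below is 32 bases of GRCh37, written 5′ to 3′ on the strand that carries the match, with the 12-base core of the CTCF consensus in capitals. The MTAP intron holds a pair of peaks, and the matches under them lie at chr9:21813157-21813168 and chr9:21814039-21814050, both on the plus strand. An exact match without a peak lies in an intron of MTAP at chr9:21805320-21805331 on the minus strand. The last 2 runs are matches with 1 mismatch in the stretch without peaks, at chr9:21969896-21969907 (plus strand) in a CDKN2A intron and at chr9:22008762-22008773 (minus strand) in a CDKN2B coding exon.
MTAP intron, first peak: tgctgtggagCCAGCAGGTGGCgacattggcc
MTAP intron, second peak: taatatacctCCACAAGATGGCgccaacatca
MTAP intron, no peak: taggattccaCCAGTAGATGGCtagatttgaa
CDKN2A intron, no peak: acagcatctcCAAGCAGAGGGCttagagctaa
CDKN2B coding exon, no peak: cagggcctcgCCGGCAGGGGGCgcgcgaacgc

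The interferon cluster holds several peaks whose sequences resemble each other. A control peak is called kept if it shares any base with a treated peak and lost otherwise. The first 3 runs below come from peaks kept after CBL0137, at chr9:21111137-21111148 (minus strand), chr9:21326714-21326725 and chr9:21466108-21466119 (both plus strand). The next 3 come from peaks at chr9:21154159-21154170, chr9:21253177-21253188 and chr9:21318471-21318482, all on the plus strand. The following pair lies in the coding exon of IFNW1 at chr9:21141545-21141556 (plus strand) and in the interferon pseudogene IFNWP19 at chr9:21455496-21455507 (minus strand). The last pair is the closest stretch in 2 other omega-interferon pseudogenes, neither of which had a peak.
Peak between IFNB1 and IFNW1, kept: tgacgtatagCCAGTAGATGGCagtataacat
Peak beside KLHL9, kept: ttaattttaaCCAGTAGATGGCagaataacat
Peak between IFNA1 and IFNE, kept: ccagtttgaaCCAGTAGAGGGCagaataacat
Peak between IFNW1 and IFNA21, lost: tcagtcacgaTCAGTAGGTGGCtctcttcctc
Peak between IFNA14 and IFNA5, lost: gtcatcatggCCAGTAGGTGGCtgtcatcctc
Peak between IFNA5 and KLHL9, kept: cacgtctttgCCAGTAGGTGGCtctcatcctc
IFNW1 coding exon, lost: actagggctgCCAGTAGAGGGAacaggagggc
IFNWP19, lost: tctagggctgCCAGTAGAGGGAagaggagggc
IFNWP15, no peak: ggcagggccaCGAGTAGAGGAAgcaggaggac
IFNWP2, no peak: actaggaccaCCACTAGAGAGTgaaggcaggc

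The locus was not short of CTCF peaks as a whole. In control cells it held 18.4 peaks per Mb, compared with 14.6 per Mb (73 peaks) in the 5 Mb before it and 8.6 per Mb (43 peaks) in the 5 Mb after it. In treated cells the values were 10.4 per Mb in the locus and 7.4 (37 peaks) and 4.6 (23 peaks) per Mb in the flanks. The density of the locus relative to both flanks together was 1.59 in control cells (exact 95% interval 1.1 to 2.25) and 1.73 in treated cells (1.05 to 2.79). These intervals, like all intervals given here, cover counting error alone. The locus also holds 24 protein-coding genes in 2.5 Mb, whereas the flanks hold 14 and 12 in 5 Mb each. Among 996 whole tiles of 2.5 Mb along the genome, the median was 40 control peaks (quartiles 27 and 52), and 38.0% of tiles held at least as many as the 46 of the locus. The treated list had a median of 21 peaks per tile (13 to 32), and 39.3% of tiles held at least 26.

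Over the whole locus, 21 of 46 control peaks had no overlap with a treated peak and were thus lost. This was 45.7% (Wilson 95% interval 32.2 to 59.8), and the share over all control peaks was 42.9%, which lies within this interval. In the flanks 62 of 116 were lost (53.4%, 44.4 to 62.3), 40 of 73 before and 22 of 43 after the locus. In the interferon stretch 8 of 15 were lost (53.3%, 30.1 to 75.2), and this interval also includes the share of all peaks. None of the 26 treated peaks arose anew, against 8.07% of all treated peaks, and 6 of 60 in the flanks did so. Weighting the loss over all control peaks to the fold enrichments found in the locus gave 48.6%, and 47.1% for the interferon stretch. When a peak counted as kept only if the overlap exceeded 50% of the larger peak, 17 of 46 were kept in the locus, 47 of 116 in the flanks and 23418 of 47470 overall.

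Within the locus the peaks were spread unevenly, with the interferon cluster dense and the CDKN2A region empty. The 405.21 kb from IFNB1 to IFNE held 15 control peaks (37 per Mb) and 7 treated peaks (17.3 per Mb). Tiles of the same length had a median of 6 control peaks and 3 treated peaks, and 6.74% and 21.6% of 6795 tiles held at least as many, respectively. The 531.639 kb stretch of MLLT3, FOCAD and HACD4 had 7 control and 4 treated peaks (13.2 and 7.52 per Mb). The shorter 320.322 kb between IFNE and MTAP, without a protein-coding gene, had the same numbers and thus a higher density (21.9 and 12.5 per Mb). From the start of MTAP to the end of CDKN2A only 2 peaks were called in either list, both in the first part of MTAP. Between the end of CDKN2A and that of CDKN2B-AS1 there were 2 control peaks and no treated peak.

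**Figure D1:**
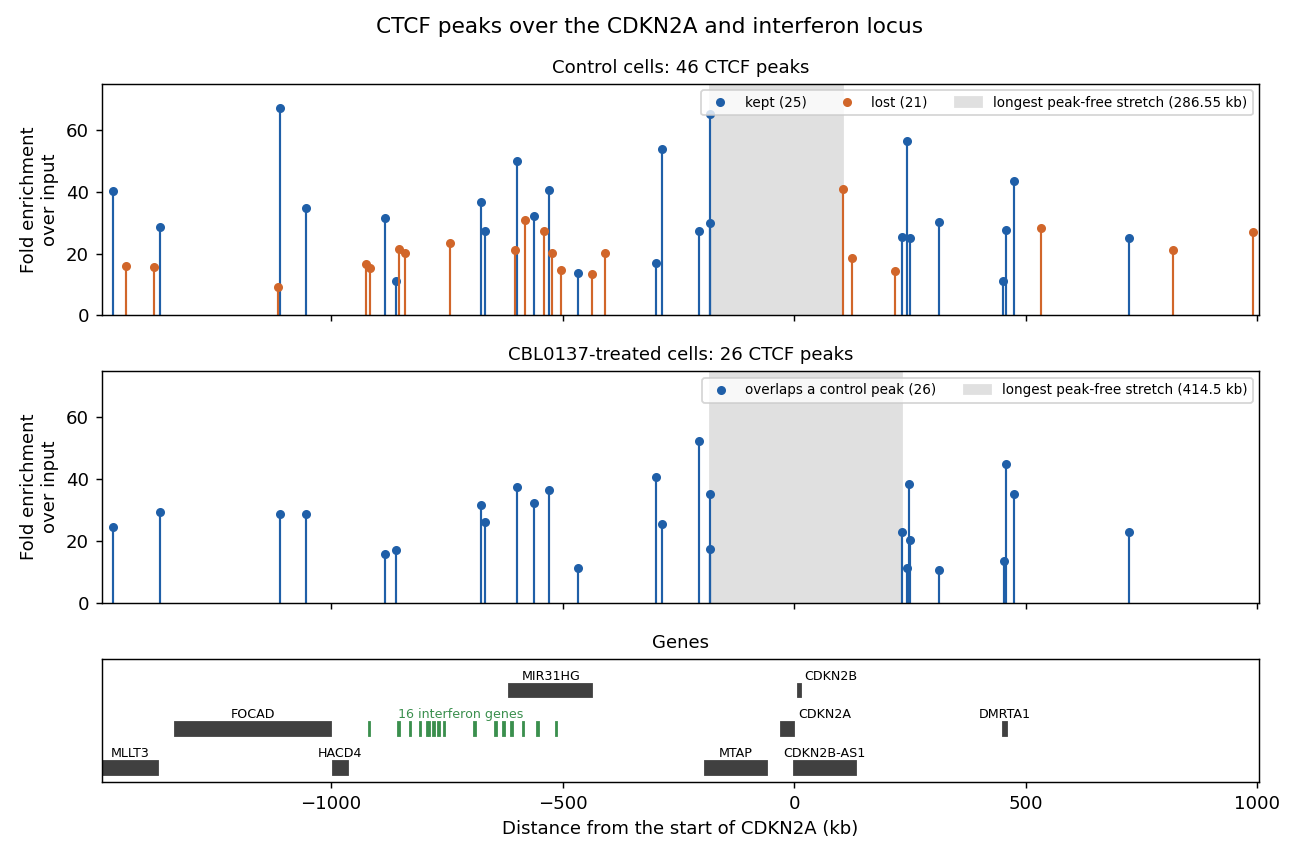
Fold enrichment of ChIP over input of each CTCF peak (vertical lines with points, linear axis) against distance from the start of CDKN2A in kb, for control cells above and CBL0137-treated cells in the middle, with genes as bars below. The 46 control peaks are colored by fate (25 kept, 21 lost), and the grey bands, 286.55 kb in control and 414.5 kb in treated cells, mark the longest stretches without a peak, which cover CDKN2A and CDKN2B.

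**Figure D2:**
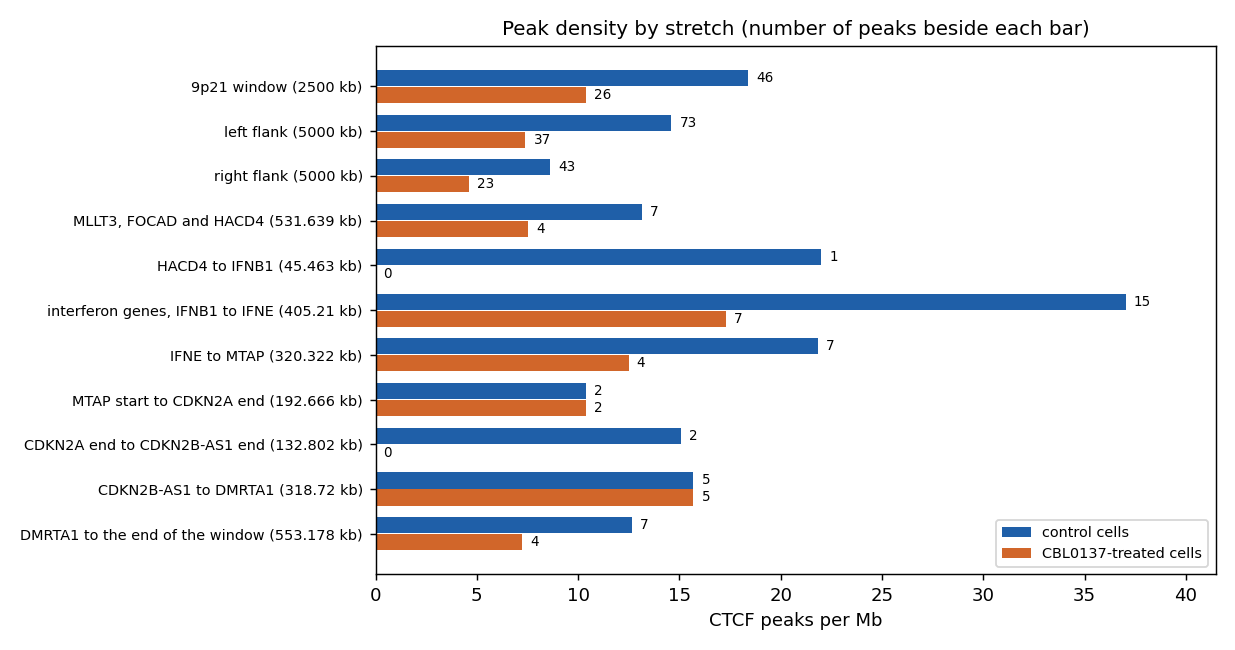
CTCF peaks per Mb (horizontal bars) of the locus, its flanks and 8 stretches within the locus in control and CBL0137-treated cells, with the number of peaks beside each bar. The interferon stretch has the longest bars (37 and 17.3 per Mb), and 2 short stretches have no treated peak.

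CDKN2A (chr9:21967751-21995300, minus strand) and CDKN2B (chr9:22002902-22009304, minus strand) had no peak in their bodies or within 50 kb in control cells. The peak nearest to the start of CDKN2A was 105 kb away in control cells and 181 kb away in treated cells. For CDKN2B these distances were 91.4 kb and 195 kb, and for CDKN2B-AS1 they were 107 kb and 180 kb. Of 20098 protein-coding genes, 5.05% started as far from a control peak as CDKN2A and 6.02% as far as CDKN2B, with a median of 10.5 kb. In treated cells these shares were 5.14% and 4.65%, with a median of 16.6 kb. Both were thus among the genes farthest from a peak in either list, although the distances in kb were larger in treated cells.

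The stretch without control peaks around these genes ran from chr9:21814201 to 22100750 and measured 286.55 kb. It held CDKN2A and CDKN2B whole, most of MTAP and the first part of CDKN2B-AS1. It ranked 1140 of 47242 stretches between neighboring control peaks, so that 2.42% were as long, and the flanks held 3 of at least this length. The median stretch was 29.7 kb. The reference sequence of the stretch had no unresolved base, and 96.2% of its 75-base words, the read length given in the methods, occur only there in the genome, against 96.8% in the whole locus. It held no exact match to the 12-base core and 13 matches with 1 mismatch, none of which lay in a peak (Wilson 95% interval 0 to 22.8%). Over the genome 15.9% of matches with at most 1 mismatch lay in a control peak. This share includes exact matches, of which 60.9% lay in a control peak, so that of matches with exactly 1 mismatch is lower. The lower share was not computed. At 13 matches, none of them exact, the interval includes 15.9%.

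On the left, the stretch began past a pair of peaks in a MTAP intron, of which the farther one was strong by fold and the bordering one was of middle strength. The first (chr9:21813051-21813300) had a fold enrichment of 65.2 over input in control cells, the 98.5th percentile of that list, and 35.1 (percentile 66.3) in treated cells. The second (chr9:21813901-21814200) had 29.9 (percentile 53.5) in control and 17.5 (percentile 23.6) in treated cells. By p-value the first stood at percentile 67.6 in control and 60.9 in treated cells, and the second at 51.5 and 60.8. Both were kept, and both carry the matches shown above. Peaks over input were thus called in the first part of MTAP in both conditions. How this relates to the deletion named above was not tested. MTAP itself was 10.4 kb from its nearest peak in either list, close to the median of all genes in control cells (50.2% were as far).

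On the right, the stretch ended at peaks that were called with weak p-values. The bordering peak in a CDKN2B-AS1 intron (chr9:22100751-22100900, 150 bp wide) had a fold enrichment of 40.9 but an FDR of 8.28e-04. Only 23 of 7031 control peaks with a fold within 10% of it (0.327%) had as weak a p-value, and the median FDR of the 7031 was 2.32e-10. The next peaks, in a CDKN2B-AS1 exon (chr9:22119651-22119850) and in a non-coding intron (chr9:22214201-22214300), had folds of 18.7 and 14.5 with FDR values of 1.08e-04 and 1.12e-03. None of the 3 carries a core match with at most 1 mismatch, and all 3 were lost in treated cells. The treated stretch therefore reached from the same MTAP peak to chr9:22228700 and measured 414.5 kb, with 3.78% of 29332 treated stretches as long. When only peaks with an FDR of at most 1e-05 were taken, these 3 dropped out and the control stretch measured 414.4 kb.

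Past the stretch, 4 peaks between CDKN2B-AS1 and DMRTA1 were kept, though none of them under the rule of more than 50% overlap. For 3 of them the treated peak stood at a lower percentile of fold enrichment, and the other was split. The peak at chr9:22239001-22239300 stood at a fold of 56.5 (95.7th percentile) in control cells and at 11.5 (7.58th percentile) in treated cells. This was the largest drop in rank by fold in the locus, but by p-value the peak only went from percentile 36.7 to 30.2. Its neighbor at chr9:22307051-22307400 went from 30.3 to 10.6, and that at chr9:22228601-22228900 from 25.3 to 23. By p-value these neighbors fell further, from percentile 78.7 to 20.7 and from 58.4 to 19.2. A wide peak of 900 bp (chr9:22244151-22245050, fold 24.9) overlapped 2 treated peaks, of which the first (chr9:22244151-22244450) had a fold of 38.5 (percentile 72.5) and the second (chr9:22244701-22245000) of 20.4 (percentile 31.3), against percentile 39.4 for the control peak. Because each list was scaled by itself, folds are set side by side here and compared by their percentile only.

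DMRTA1 (chr9:22446823-22455739, plus strand) differed from CDKN2A in that peaks lay on it. Its start was 0.578 kb from a peak in both lists, and 85.4% of genes were as far in control cells. This peak, in a coding exon (chr9:22447401-22447500), had a fold of 11.3 in control and 13.4 in treated cells. The peak in an untranslated part of the gene (chr9:22452401-22452800) had 27.7 in control cells (47.0th percentile) and 44.9 in treated cells (82.5th percentile). A further peak 14411 bp past the gene (chr9:22469951-22470350) had 43.5 and 35.2. All 3 were kept, and both peaks of the gene body had a higher percentile of fold enrichment in treated cells. By p-value, however, the second stood lower (percentile 87.99 in control and 78.1 in treated cells), and the first was not kept under the rule of more than 50% overlap. Empty stretches of the control list followed, chr9:22528801-22718700 (189.9 kb) and chr9:22813901-22986600 (172.7 kb), neither of which holds a protein-coding gene. Of all control stretches 5.64% and 6.79% were as long, and the flanks held 14 and 18 of at least these lengths.

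The interferon genes were not, in the median, closer to control peaks than protein-coding genes in general, and several of the peaks nearest to them were lost. Of 16 interferon genes, 6 had a control peak within 10 kb of the start and 2 within 1 kb, whereas in treated cells these numbers were 2 and 0. The median distance was 13.0 kb (0.181 to 47.9) in control and 29.3 kb (5.64 to 90.1) in treated cells. Over all protein-coding genes the median was 10.5 kb in control and 16.6 kb in treated cells, and 18.0% and 15.46% of them started within 1 kb of a peak. The share of all genes within 10 kb was not computed. Neighboring interferon genes also share peaks, so they are not separate observations. In treated cells the peak at chr9:21135851-21136050 was the nearest for every interferon gene from IFNW1 to IFNA16. For IFNB1 (chr9:21077103-21077941, minus strand), the interferon beta gene, the nearest peak was 0.86 kb from the start in control cells and 33.1 kb in treated cells. The peaks on each side of it, at chr9:21070301-21070600 (fold 16.8) and chr9:21078801-21079050 (fold 15.4), were both lost. By fold these were among the weaker peaks of the control list, at its percentiles 17.3 and 14.1, while by p-value they stood at percentiles 45.2 and 30.8. Neither has a core match with at most 1 mismatch. For IFNA1 (chr9:21440438-21441315, plus strand) the nearest peak lay 5.64 kb away in both lists. This peak (chr9:21434451-21434800), in an intron of the long non-coding RNA gene MIR31HG, had a fold of 32.3 and a width of 350 bp in either list. IFNA8 (chr9:21409116-21410184, plus strand) was 4.68 kb from a control peak and 12.6 kb from a treated peak. The control peak next to it (chr9:21413801-21414050, fold 30.9) was one of the strongest that were lost.

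The middle of the cluster was the emptiest part. The start of IFNA7 lay 47.9 kb from a control peak and that of IFNA17 lay 24.8 kb away. In treated cells the stretch chr9:21136051-21318350 (182.3 kb) held no peak, and it covers 9 interferon genes from IFNW1 to IFNA5. Its length was not unusual, as 13.2% of 29332 treated stretches were as long and the flanks held 17 of at least this length. IFNA17 was the farthest gene in treated cells, at 90.1 kb. The share of 75-base words that occur once in the genome ranged among these 9 genes from 56.6% for IFNA4 and 69.2% for IFNA10 to 99.9% for IFNW1. Outside this stretch it was lower still for IFNA13 (23.4%) and IFNA1 (41.7%). Since reads with more than 1 alignment had been removed, a peak within the bodies of the less unique genes could have been missed, and whether this occurred was not tested. All 46 control peaks of the locus lie in unique sequence by this measure.

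IFNW1, the omega-interferon gene, was the only one of the 16 genes with a peak in its body (chr9:21141451-21141650, fold 21.5). Among 28 interferon genes and pseudogenes annotated here, only IFNW1 and IFNWP19 overlapped a control peak and none overlapped a treated peak. The IFNWP19 peak (chr9:21455301-21455700) also lies in an exon of MIR31HG and had a fold of 27.2. The 300 bp around the 2 peak centres aligned over 304 positions with 82.2% identity, and 30 of the 32 bases shown above are the same. Of 8 annotated entries of the omega type, these 2 alone had at most 1 mismatch to the core in the stretch closest to that of IFNW1. The other 6 had between 2 and 4, among them IFNWP2 with 2 and IFNWP15 with 3. This family was looked up after the peaks had been seen, and no test was made on it.

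The other look-alike peaks of the cluster are alike over less sequence or differ in fate. The first 3 of the runs shown above, from peaks beside KLHL9, between IFNB1 and IFNW1, and between IFNA1 and IFNE, had 23 to 27 of 32 bases in common by pairs, and all were kept. The likeness was limited to the core and its edges, since the 300 bp around their centres aligned over only 25 to 39 positions. Their folds were 27.3, 31.4 and 40.4 in control and 26.2, 15.8 and 36.6 in treated cells. The 3 peaks of the second kind had 23 to 26 bases in common and aligned over 143 to 300 positions. The peaks at chr9:21154001-21154300 (fold 20.1) and chr9:21253001-21253350 (fold 23.6) were lost, and that at chr9:21318301-21318700 (36.8 in control, 31.8 in treated cells) was kept. Within this kind the kept peak was the strongest of the control list.

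MIR31HG, the host gene of the microRNA miR-31, overlaps the distal interferon genes and had 10 control peaks and 4 treated peaks in its body. The peak at chr9:21396001-21396500 was its strongest by fold enrichment, at the 91.4th percentile in control and at percentile 71.0 in treated cells. By p-value it stood at percentile 74.3 in control cells, below other peaks of the gene such as chr9:21434451-21434800 (percentile 90.9). The start of MIR31HG lay 0.14 kb from a control peak, which was called with a fold of 13.5 and an FDR of 7.65e-04, and 32 kb from the nearest treated peak. Between IFNE and MTAP, 2 peaks stood higher in the treated list by fold enrichment, but not by p-value. The first (chr9:21696701-21696950) went from 17.0 to 40.7, that is from the 17.7th to the 76.4th percentile, and the second (chr9:21789501-21790000) from 27.3 to 52.3, from the 45.9th to the 90.5th. Ranked by p-value, with the strongest at 100, they stood at percentiles 39.9 and 44.5 in control cells and at the lower percentiles 24.1 and 29.4 in treated cells. A peak between them (chr9:21709501-21709800) went from 53.9 to 25.6, and so neighbors differed in opposite directions by fold. By p-value this peak also stood lower in treated cells (percentile 47.2 in control and 41.6 in treated cells), so the opposite directions held for fold alone.

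FOCAD, which encodes focadhesin, carried the strongest peak of the locus in a coding exon (chr9:20885051-20885350). This peak has an exact core match and had a fold of 67.3 in control cells (98.9th percentile) and of 28.9 in treated cells (percentile 52.8), while by p-value it stood at percentile 74.8 in control and at 92.6 in treated cells. A second peak with an exact match, in an intron of FOCAD (chr9:20941101-20941450), had 34.8 and 28.6, and a weak one (chr9:20880851-20880950, fold 9.04) was lost. The start of FOCAD lay 33.2 kb from the nearest peak in both lists, and 255.7 kb of its first part and the sequence before it held no control peak. Of all control stretches 3.07% were as long, and the flanks held 4 of at least this length.

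Lost peaks of the locus were weaker in the median than kept ones, as over the genome, and the groups overlapped. Kept peaks of the locus had a median fold of 30.3 (11 to 67.3) and a median width of 350 bp in the control list, and lost peaks had 20.2 (9.04 to 40.9) and 250 bp. Over all control peaks these medians were 34.9 for kept and 20.6 for lost peaks. A core match with at most 1 mismatch within 400 bp around the centre was found in 16 of 25 kept and in 6 of 21 lost peaks. This share was not computed for kept and lost peaks apart over the genome, so whether the contrast is particular to the locus was not tested. For all control peaks of the locus the share was 47.8% (22 of 46), compared with 49.0% over the genome and with 2.17% (1 of 46) at positions 10 kb away. In treated cells it was 61.5% (16 of 26), and 60.5% over the genome. Of 13 exact matches in the locus, 9 lay in a control peak (69.2%, Wilson 95% interval 42.4 to 87.3) and 8 in a treated peak (61.5%, 35.5 to 82.3). Over the genome these shares were 60.9% and 55.5%, within both intervals. All 5 exact matches of the interferon stretch lay in a control peak, and the interval of this share (56.6 to 100%) also includes that of the genome.

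**Figure D3:**
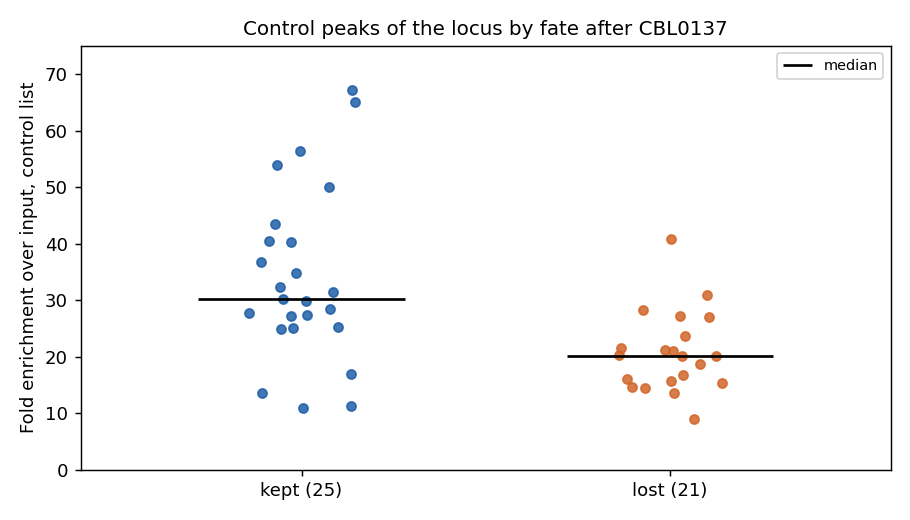
Fold enrichment over input in the control list (vertical axis, linear) of the 46 control peaks of the locus, as points with sideways jitter, by fate after CBL0137, with black lines at the medians. Kept peaks have a median of 30.3 and lost peaks of 20.2, and the groups overlap between 11 and 40.9.

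Of the 25 kept peaks, 7 (28%) had a higher rank by fold enrichment in the treated list, against 35.2% of all kept peaks, and the median change was -9.50 percentile points, with a range of -88.1 to 58.7. The median over all kept peaks was -9.21 and that of the flanks -6.84. The treated peak was narrower in 15 cases (60%), as wide in 6 and wider in 4. It was narrower for 62.4% of all kept peaks and for 63.0% of those in the flanks, close to the share in the locus. The wide peak that overlapped 2 treated peaks was paired with the second of them here, at percentile 31.3. The first, at percentile 72.5, overlapped it by as many bases and stood above the control peak.

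**Figure D4:**
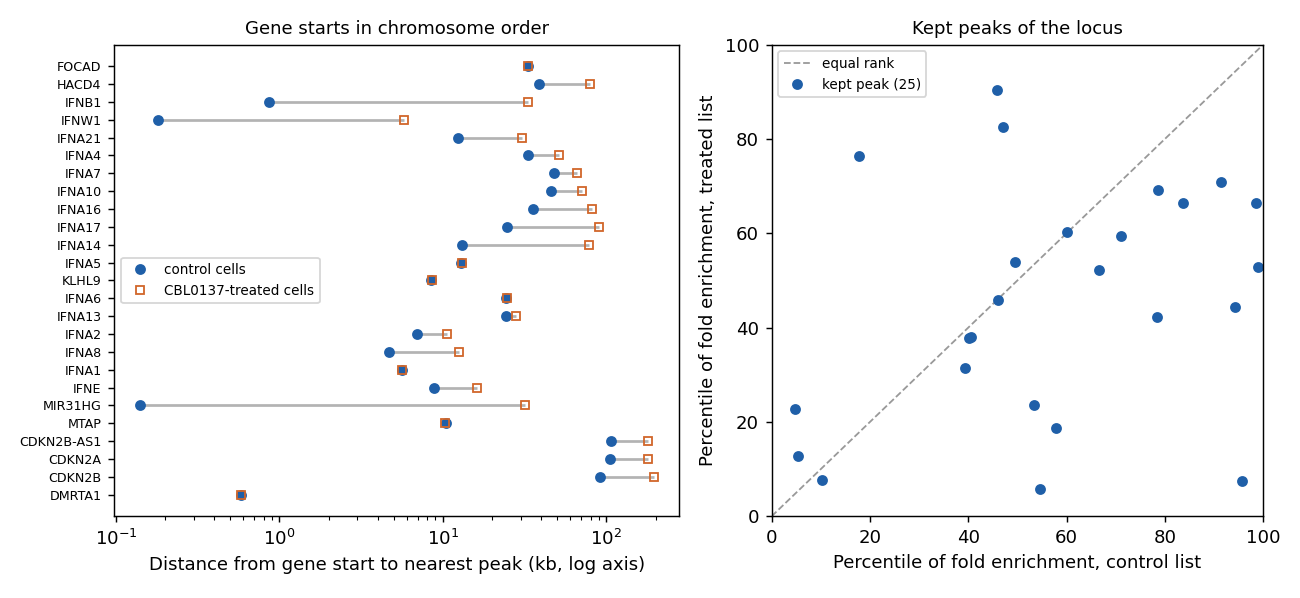
Left, distance from each listed gene start of the locus, except that of MLLT3, to the nearest CTCF peak in kb (log axis). Filled circles are control cells, open squares are CBL0137-treated cells, and genes are in chromosome order. CDKN2A, CDKN2B and CDKN2B-AS1 lie farthest to the right in both lists. Right, percentile of fold enrichment of the 25 kept peaks in the control list against that in the treated list, with a dashed line of equal rank; 7 points lie above it.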

How the data were processed

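CTCF ChIP-seq of HT1080 cells was analysed from peak lists. Per the methods and the submitters' processing notes, the authors mapped 75-base reads to hg19 with Bowtie2 2.2.3, removed multiply aligned reads and duplicates with SAMtools 1.5, and called peaks with PePr (windows of 100 bp, p-value cutoff 0.05) on both replicates of a condition together. The labels call the reads paired-end and the methods single-end. The deposited fold enrichment is a ratio of ChIP over input, and each peak has a p-value and an FDR deposited by the authors. FDR values reach 1.32e-03 in the control and 2.21e-03 in the treated list. The differential lists hold the authors' fold and p-value of one condition over the other and were not used. Depth per library is not in the lists and was not analysed here.

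Peaks were placed by centre, joined to GRCh37 and GENCODE v44lift37 genes, and compared by any overlap, using Python 3.11.15, pandas 2.3.3, scipy 1.17.1 and pysam 0.24.0. Named were the 6 genes of the locus, listed interferon and neighboring genes, peaks within 50 kb of them and peaks bordering the longest empty stretch. Some peaks farther from these genes were described as well. Among them were those with the largest drop and the largest rise in rank by fold, so the naming was not independent of the outcome. Shares have Wilson intervals, and density ratios have exact binomial ones. The scripts were tested on simulated sequences. The members and lists were chosen with earlier results of these data known.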

Additional observations from a re-analysis of the deposited data

How the results depend on the processing

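Of 35 values recomputed under other settings, 30 stayed within their 95% interval or, for counts and lengths, within 1.5 times. When the shared bases had to exceed 50% of the larger peak, 63.0% of control peaks of the locus were lost, and with more than 50% of the control peak it was 60.9%, while the flanks stayed within their interval. Over all control peaks, 23418 of 47470 were kept under the first of these rules, and the second was not computed for them. Under the first rule 9 of the 26 treated peaks of the locus had no control peak, and with centres at most 200 bp apart 2 had none. The shares of all treated peaks under these settings were not computed, so these counts have no background beside them. With 1 mismatch allowed, 23.2% (22 of 95) of core matches lay in a control peak, as more matches were counted. With an FDR of at most 1e-05, the locus held 34 control and 20 treated peaks, and the longest treated stretch (598.5 kb) then lay across the start of the locus. The densities relative to the flanks ranged from 1.55 to 2.18 in control and from 1.79 to 2.59 in treated cells over the alternatives. No paired analysis was possible because each deposited list merges both replicates, and leaving out a replicate could not be run for the same reason.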

Other observations

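Strand and promoter sequence were also examined. Of the 22 control peaks of the locus with a core match, 14 had it on the plus strand and 8 on the minus strand. The strand share over all peaks was not computed. Both matches of the MTAP pair of peaks, of which the second borders the empty stretch, were on the plus strand. In RefSeq (GRCh38.p14), 24 promoters of 300 bases were found for 23 listed genes of the locus. None of them held the 12-base core with at most 1 mismatch on either strand, against 4.94% of all 35116 promoters.

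In the flanks the strongest control peaks were kept and the weakest were lost. Before the locus these were chr9:16192201-16192550 (fold 59.2, intergenic) and chr9:18137901-18138050 (fold 11, in an intron of ADAMTSL1). After it they were chr9:25003751-25004100 (fold 50.6, intergenic) and chr9:27165801-27165950 (fold 10.6, in an intron of TEK, which encodes an angiopoietin receptor).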
